A study of Mus musculus with 2 samples.

Results

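The genes described here are *Xkr4*, *Sntg1*, *Kcnb2*, *Kcnq5*, *Rims1*, *Adgrb3*, *Khdrbs2*, *Aff3*, *Pard3b* and *Erbb4*, very long protein-coding genes on the proximal part of mouse chromosome 1 (GRCm38). They were chosen by name, for their length and the neuronal roles known for most of them, and the rule used no contact value. They are 10 of the 497 protein-coding genes that lay wholly inside the stretch examined, from 3 to 90.75 Mb, and 10 of the 27 such genes of at least 300 kb. The other 17 genes of that length served for comparison. For each gene, the pairs with both ends in its body were set against pairs that crossed its start or its end and against gene-free stretches of equal length.

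Contacts were measured by Hi-C, in which DNA pieces that lie close together in cross-linked nuclei are joined and each product is read from either end. The cells were mouse embryonic stem (ES) cells, wild-type in 1 library and in the other knocked out for *Lin28a*, which encodes an RNA-binding protein. The labels say no more of the knockout. Knockout ES cells of the study were either single clones made by CRISPR/Cas9 or were derived from knockout mice, and which of these gave the library is not given in the sources used here. Cells of both groups were grown for 2 days on mouse embryonic fibroblast (MEF) feeder cells and gelatin in medium with LIF and 2 inhibitors (LIF/2i). Feeder cells were not told apart from ES cells in the pairs, no expression was measured in these libraries, and neither the activity of the genes nor the label neuronal could be checked with them. With 1 library per group no test was possible, and every interval below is a 95% interval that covers counting error only. In the stretch examined, 2659291 wild-type and 2131334 knockout pairs joined positions of the same chromosome (cis) that lay 5 kb or more from each other.

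In nuclei, chromosomes fold into domains, stretches of up to a few megabases within which contacts are frequent, separated by boundaries that contacts cross less often. Domains lie in an A compartment, rich in genes and active, or in a B compartment, poor in genes and mostly silent. Very long genes consist almost wholly of introns, many of them act at synapses, and in ES cells most neuronal genes are known to be silent or nearly so.

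Most of the genes encode proteins of the neuronal membrane or synapse. *Kcnb2* and *Kcnq5* encode the voltage-gated potassium channel subunits Kv2.2 and Kv7.5, and *Rims1* encodes a scaffold of the presynaptic active zone. *Adgrb3* encodes an adhesion G protein-coupled receptor of synapses, *Erbb4* a receptor tyrosine kinase for neuregulins, and *Sntg1* gamma-1 syntrophin, an adaptor of the dystrophin complex. *Xkr4* belongs to the XK-related family, which includes phospholipid scramblases. The remaining genes act elsewhere in the cell: *Khdrbs2* encodes a splicing regulator of neurons, *Aff3* a nuclear protein of the transcription elongation machinery, and *Pard3b* a cell polarity protein.

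The bodies differed more than 2-fold in length. *Erbb4* (chr1:68031884-69108576, minus strand) was the longest coding gene of the stretch, with 1077 kb, followed by *Pard3b* (chr1:61638667-62642284, plus strand) with 1004 kb and *Sntg1* (chr1:8359739-9301657, minus strand) with 942 kb. *Adgrb3* (chr1:25067476-25834772, minus strand) spanned 767 kb and *Kcnq5* (chr1:21398399-21962650, minus strand) 564 kb. *Khdrbs2* (chr1:32172602-32705224, plus strand) and *Rims1* (chr1:22285972-22806158, minus strand) spanned 533 and 520 kb. *Xkr4* (chr1:3199733-3671948, minus strand), *Aff3* (chr1:38175393-38630178, minus strand) and *Kcnb2* (chr1:15286925-15723751, plus strand) were the shortest, with 472, 455 and 437 kb.

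Exons made up between 0.620% of the body in *Khdrbs2* and 3.84% in *Kcnb2*. The GC content ranged from 36.0% in *Erbb4* to 44.6% in *Aff3* with a median of 38.6%, beside 39.9% for the median of the 17 other long genes and 40.8% for the whole stretch. *Aff3* was the only one of the 10 above 40.8%. Neighbouring coding genes were often far away. Apart from 2 predicted genes inside its body, *Khdrbs2* had none within 748 kb on either side, and the nearest upstream gene of *Adgrb3* lay 847 kb away, whereas the end of *Kcnq5* lay 12 kb from *Khdc1b* and the end of *Aff3* lay 45.5 kb from *Rev1*.

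*Rims1* could not be measured. With no limit on distance, 3 cis pairs had an end in its body in wild-type cells and 0 in knockout cells, where *Kcnq5*, its neighbour of similar length, held 30389 and 24046. All 52 of its 10 kb bins fell under the coverage limit, inside a run of 720 kb (chr1:22160001-22880000) without usable bins in either library. Of 100-base words taken at regular steps along the body, 99.9% occur a second time in the reference genome, on a patch scaffold that repeats this region. For *Kcnq5* the share found on that scaffold was 0.142%. No pair in the lists had a mapping quality under 11, a score that falls where a read matches several places, and the part of this in the gap was not tested. The results below are on the other 9 genes. Coverage was also low in *Erbb4*, whose median bin had 45.7% of the median coverage in wild-type cells and 46.4% in knockout cells, and in *Sntg1*, with 72.3% and 72.7% and 9 of 94 bins left out. The part of low coverage in their values was not tested.

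Contacts inside a body were counted in 10 kb bins and divided by the number expected at the same distances from the mean of the stretch, after bins had been balanced to equal totals. Balancing can give too high values near the ends of the stretch and beside the gap at *Rims1*, where bins have partners on 1 side only, so values inside the body and across its edges are also given with weights corrected for position. The correction was chosen after seeing the data, and it matters most for *Xkr4*, whose end lies 200 kb from the first base of the assembled stretch. A value of 1 means as many contacts as the stretch has on average at those distances.

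*Kcnq5*, *Aff3* and *Erbb4* had more contacts inside their bodies than expected in both lines and with both kinds of weights. The value of *Kcnq5* was 1.102 (1.07 to 1.13, 5880 pairs) in wild-type cells and 1.11 (1.08 to 1.14, 4722 pairs) in knockout cells. *Aff3* had 1.06 (1.04 to 1.09) and 1.05 (1.01 to 1.08), and *Erbb4* had 1.07 (1.04 to 1.1002) and 1.06 (1.03 to 1.09). With weights corrected for position the 3 genes stood at 1.04, 1.13 and 1.14 in wild-type cells and at 1.04, 1.12 and 1.14 in knockout cells. The value of *Erbb4* rests on the balancing: without it, and with low coverage uncorrected, the body had 0.384 and 0.388 of the expected pairs.

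*Adgrb3* and *Kcnb2* had fewer contacts inside than expected. *Adgrb3* had the lowest balanced value of the 9, 0.873 (0.851 to 0.895) in wild-type cells and 0.866 (0.841 to 0.891) in knockout cells. *Kcnb2* stood at 0.915 (0.886 to 0.944) and 0.926 (0.893 to 0.960). The correction for position left both below 1, at 0.879 and 0.906 in wild-type cells and at 0.877 and 0.909 in knockout cells.

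The other 4 genes gave no direction that held. *Khdrbs2* stood at 0.923 and 0.921 in the wild-type and knockout libraries and at 0.991 in both after the correction. *Pard3b*, which had the most pairs (13165 and 10512), stood at 1.01 and 0.991, and at 1.05 and 1.04 corrected. *Xkr4* had the highest balanced values of all, 1.13 and 1.21, but fell to 0.848 and 0.883 when position was taken into account. *Sntg1* likewise went from 1.09 and 1.13 to 0.974 and 1.00.

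As a set, the 9 genes were not set apart from other long genes. Their median was 1.06 in wild-type cells and 1.05 in knockout cells, beside 1.05 and 1.01 for the 17 other genes, and 0.991 and 1.00 beside 1.01 and 0.988 with the correction.

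**Figure D1:**
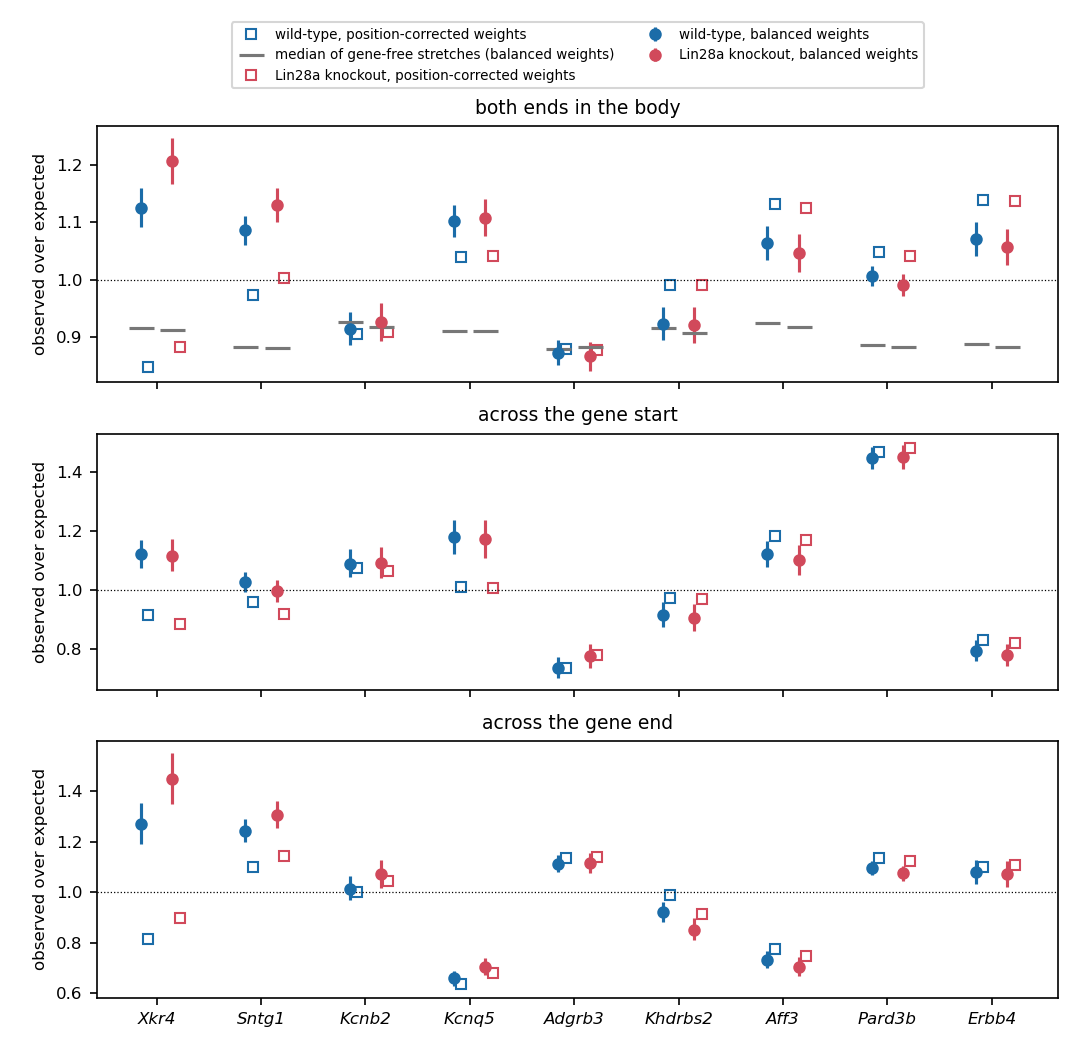
Observed over expected contacts (y axis) for the 9 measurable genes (x axis): pairs with both ends in the body (top), pairs across the gene start (middle) and pairs across the gene end (bottom). Filled points are balanced values with 95% counting intervals, open squares are values with weights corrected for position, and grey bars are medians of gene-free stretches of equal length. *Pard3b* stands highest across its start, at 1.45 in both lines, and *Kcnq5* and *Aff3* lowest across their ends.

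If a gene body were a domain of its own, contacts inside it would be more frequent than contacts across its start and end at the same distances. This held for 1 of the 9 genes with balanced values in each library, and for 3 of the 9, *Kcnq5*, *Khdrbs2* and *Erbb4*, after the correction. Among the 17 other long genes 8 met it, in both lines and with both kinds of weights. With balanced values the single gene was *Khdrbs2*, at 0.923 inside, 0.915 across its start and 0.920 across its end in wild-type cells, differences smaller than the counting intervals.

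At 1 side of 4 of the 9 genes crossing contacts were below 0.8 of the expected number in both lines, a limit set after the values were seen. The same held for 3 of the 17 other long genes, the lowest being *Col19a1* with 0.575 and 0.566 across its end, and after the correction for 3 of the 9 and 3 of the 17. Across its end, *Kcnq5* had 0.658 (0.628 to 0.688) of the expected contacts in wild-type cells and 0.704 (0.670 to 0.739) in knockout cells. *Aff3* had 0.731 (0.699 to 0.765) and 0.704 (0.667 to 0.741) across its end. Of the 9 genes, *Kcnq5* and *Aff3* thus had both the ends closest to another coding gene and the lowest values there. Ends of other long genes lay as close, such as those of *Dnah7c* (0.067 kb), *Spag16* (0.307 kb), *Col19a1* (4.9 kb), *Hecw2* (21.6 kb) and *Dner* (30.0 kb). Only 3 of those 17 genes had a side below 0.8 in both lines, and a link with distance was not tested. *Adgrb3* had 0.734 (0.699 to 0.770) and 0.775 (0.735 to 0.816) across its start, and *Erbb4* 0.792 (0.758 to 0.828) and 0.777 (0.740 to 0.815). None of these intervals overlapped the value of the same gene at its other side, where *Kcnq5* and *Aff3* had 1.18 and 1.12 and *Adgrb3* and *Erbb4* had 1.11 and 1.08 in wild-type cells. Without balancing, the value at that other side turned below 1 for *Erbb4*, to 0.482 and 0.457 in the wild-type and knockout libraries, and for *Kcnq5*, to 0.951 and 0.945. The 4 low values, in the order given, were then 0.751, 0.978, 0.495 and 0.417 in wild-type cells. After the correction the 4 low values, in the order given, were 0.636, 0.773, 0.735 and 0.831 in wild-type cells and 0.680, 0.747, 0.779 and 0.818 in knockout cells. For *Kcnq5* the value across the start was 1.01 in both lines after the correction, and the gap at *Rims1* lies in that flank.

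*Pard3b* showed the opposite. Contacts across its start exceeded the expected number by 1.45-fold (1.41 to 1.49) in wild-type cells and by 1.45-fold (1.41 to 1.49) in knockout cells, far above its value inside the body. Corrected for position these values were 1.47 and 1.48. The region upstream of *Pard3b* is a gene desert of 638 kb that reaches to *Icos*, the gene of a T cell costimulatory receptor.

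**Figure D2:**
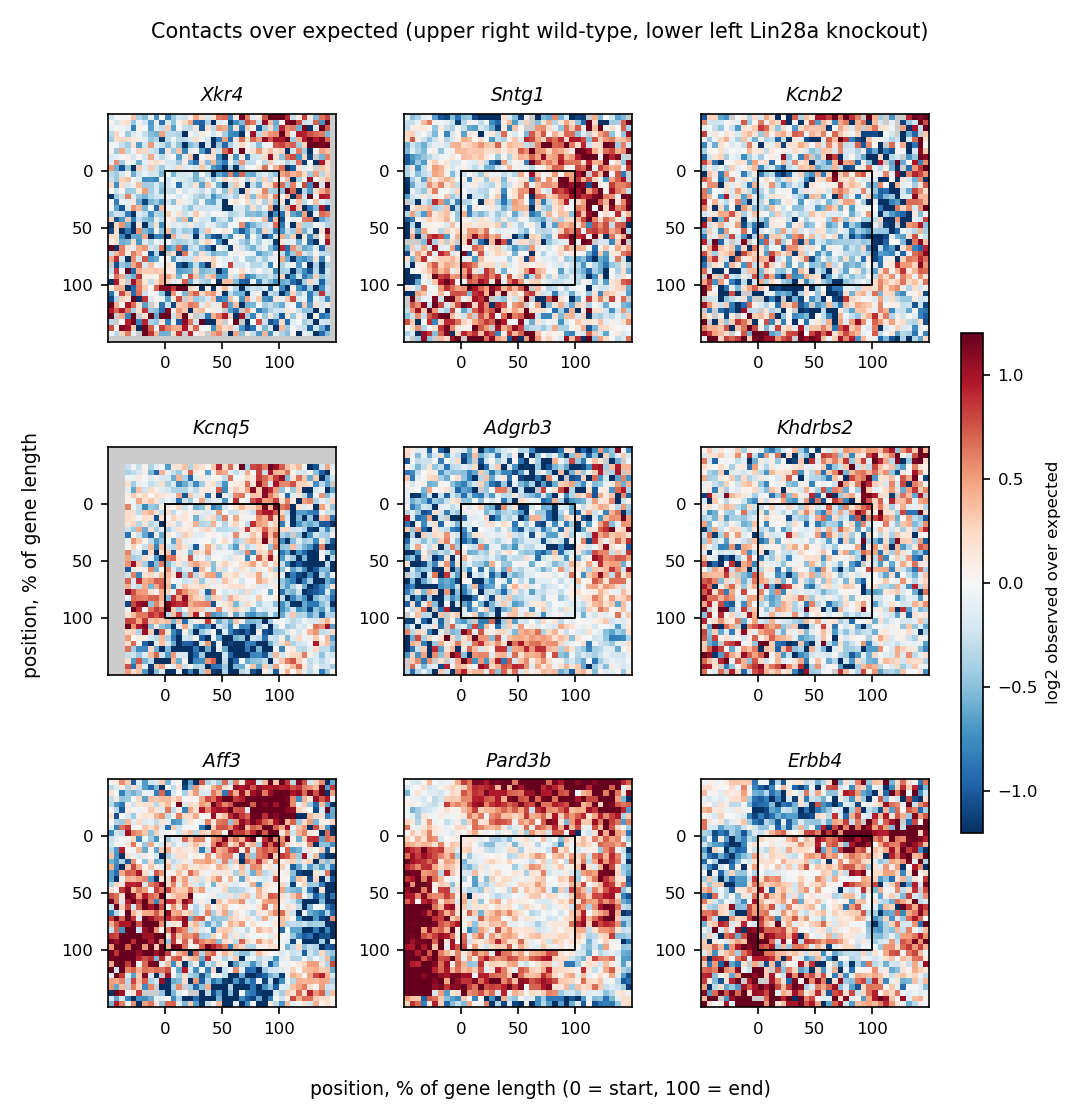
Maps of contacts over expected for the 9 genes, with weights corrected for position, from 50% of the gene length before the start to 50% beyond the end (both axes, in % of gene length, read in the direction of transcription). Colour gives log2 of observed over expected, the upper right of each map is the wild-type library and the lower left the knockout library, black squares mark the body, and grey cells have no usable bins. Blue blocks lie beyond the ends of *Kcnq5* and *Aff3*, and red blocks join the body of *Pard3b* to its upstream flank.

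The excess inside *Kcnq5*, *Aff3* and *Erbb4* was largest among long-range contacts. Pairs under 50 kb apart had 1.06 (1.02 to 1.101), 0.993 and 1.02 of the expected number in wild-type cells, and pairs between 50 and 200 kb apart had 1.05 (1.00 to 1.09), 1.07 (1.02 to 1.12) and 0.976. Pairs over 200 kb apart had 1.31 (1.24 to 1.38), 1.27 (1.19 to 1.36) and 1.21 (1.16 to 1.27). In the knockout library the long-range values were 1.25, 1.33 and 1.17, and after the correction they were 1.23, 1.35 and 1.29 in wild-type and 1.17, 1.42 and 1.26 in knockout cells. Over all 9 genes, long-range values exceeded those under 50 kb in 8 genes of the wild-type library and 7 of the knockout library, and the same numbers held after the correction. Of the 17 other long genes, 9 and 10 did so with the correction. *Khdrbs2* was an exception in knockout cells and *Adgrb3* in both, with 0.790 (0.750 to 0.832) of the expected long-range pairs in wild-type cells and 0.791 in knockout cells.

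Contacts between the 40 kb around the start and the 40 kb around the end rested on 5 to 36 pairs per gene in the 9 genes. Of the 9 genes only *Aff3* had an interval above 1 in both lines with both kinds of weights, as did 2 of the 17 other long genes, *Plcl1* and *Dis3l2*. *Aff3* had 1.52 (1.04 to 2.15, 32 pairs) in wild-type cells and 1.95 (1.37 to 2.70, 36 pairs) in knockout cells, lower than *Plcl1* (2.55 and 2.34) and *Dis3l2* (3.72 and 2.70). *Erbb4* illustrates the counting error, with 0.922 from 5 pairs in wild-type cells and 2.57 from 12 pairs in knockout cells.

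More of the genes stood above than below the median of gene-free stretches of their own length, but so did most windows of any kind. Stretches without any part of a protein-coding gene came from 7 to 24 separate deserts, and their medians ran from 0.879 to 0.926 in wild-type cells. Of the 9 genes, 7 exceeded the median of their stretches in wild-type cells and 8 in knockout cells, beside 11 of the 17 other long genes in both. After the correction 6 of 9 did so in each library, beside 12 and 10 of the other 17. Of all windows of the same lengths, between 69.5% and 86.5% stood above that median in wild-type cells, and between 61.7% and 70.8% after the correction. The median of all windows lay between 0.977 and 0.981 in wild-type cells, and 6 of the 9 genes exceeded it in each library, as did 10 and 9 of the other 17. *Aff3*, *Erbb4*, *Kcnq5* and *Pard3b* stood high with both kinds of weights, above 91.7%, 96.9%, 96.5% and 84.6% of their gene-free stretches in wild-type cells, and above 95.8%, 100%, 81.9% and 88.8% after the correction. *Adgrb3* and *Kcnb2* stood above 41.9% and 47.7% of theirs, and above 1.05% and 14.6% after the correction. *Xkr4* went from above 98% to above 0%. Stretches overlap each other, so these percentages are descriptions.

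The insulation score measures how strongly contacts are interrupted at a position. It is log2 of the mean contact in a square of 200 kb to each side over the mean of the stretch, in 20 kb bins, and low values mark boundaries. Minima that stood out by 0.2 or more (their prominence) were taken as boundaries, and the map of both libraries together had 172, or 1.96 per Mb.

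Of the 9 bodies, 5 held no boundary more than 50 kb from either edge and were taken as undivided: *Xkr4*, *Kcnq5*, *Adgrb3*, *Khdrbs2* and *Aff3*. Of these, *Kcnq5* had a boundary 20 kb inside its end, which left 21.6 kb of the body beyond its domain. The other 4, *Sntg1*, *Kcnb2*, *Pard3b* and *Erbb4*, were divided, so the label of genes in a single domain holds for only part of the set. Among the 17 other long genes 9 were undivided. Bodies of the 9 genes held 1.12 boundaries per Mb of interior, beside 1.498 in the other long genes. This order did not hold in each library, since the 9 bodies held 1.31 per Mb in wild-type cells and 1.69 in knockout cells, where the other long genes had 1.498 in both. For the longest undivided body, that of *Adgrb3*, 8.97% of all windows of its length hold no boundary, and for *Kcnq5* 21.9%. For *Khdrbs2*, *Xkr4* and *Aff3* these shares were 26.2%, 31.2% and 33.9%. In single libraries, with fewer pairs, 4 of 9 bodies were undivided in wild-type cells and 3 of 9 in knockout cells, where *Adgrb3* in both and *Kcnq5* in knockout cells gained a minimum.

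Of the boundaries inside a body and more than 50 kb from its edges, the deepest was that of *Kcnb2*, 360 kb from its start and 81.8% of the way along, with scores of -0.50 (half-width of the interval 0.11) in wild-type cells and -0.41 (0.12) in knockout cells. *Pard3b* held minima at 140 kb and 740 kb, of which the first had scores of -0.22 and -0.25. *Sntg1* held minima at 180 kb and 580 kb, and at the second the score was -0.31 (0.14) in wild-type cells and -0.09 (0.16) in knockout cells. The minimum of *Erbb4*, at 620 kb, was shallow, with scores of -0.14 (0.19) and -0.05 (0.20), both within counting error of 0. With a prominence of 0.4 in the single libraries, only *Sntg1*, *Kcnb2* and *Pard3b* stayed divided.

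Other boundaries lay at the edges of bodies. The boundary nearest to the end of *Kcnq5* lay 20 kb inside it (scores -0.51 and -0.60), that of *Aff3* 20 kb beyond its end (-0.55 and -0.65). *Erbb4* had the deepest of all boundaries nearest to these genes 80 kb upstream of its start (-0.77 in both lines), and *Adgrb3* had 1 lying 60 kb upstream of its start (-0.52 and -0.48). With balanced values these are the 4 edges at which crossing contacts were lowest. After the correction the end of *Xkr4* stood below the start of *Erbb4* in wild-type cells, and without balancing the order also differed. Both measures count the same pairs, so their match is a description and not an independent result. Leaving aside the shallow minimum inside, the domain of *Erbb4* spanned 1.1 Mb, and the gene filled 93.5% of it, with no other coding gene inside, while 48.1 kb at the end of the gene lay beyond the domain. The boundary on that side had a score of -0.52 (0.15) in wild-type cells but of -0.11 (0.16) in knockout cells, within counting error of 0. *Pard3b* and *Sntg1* filled 72.7% and 76.0% of the stretch between the boundaries flanking them, also without other coding genes. The domain of *Aff3* also held *Lonrf2*, *Chst10*, *Gm51581* and *Nms*. That of *Khdrbs2* was 1.72 Mb long, and the score was below 0 throughout the gene in the summed map, falling to -0.29 at its end (-0.21 in wild-type and -0.39 in knockout cells).

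Over the 9 genes, 5 of the ends and 2 of the starts lay within 60 kb of a boundary, where 27.4% of all positions do. Among the 17 other long genes these numbers were 5 ends and 7 starts.

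**Figure D3:**
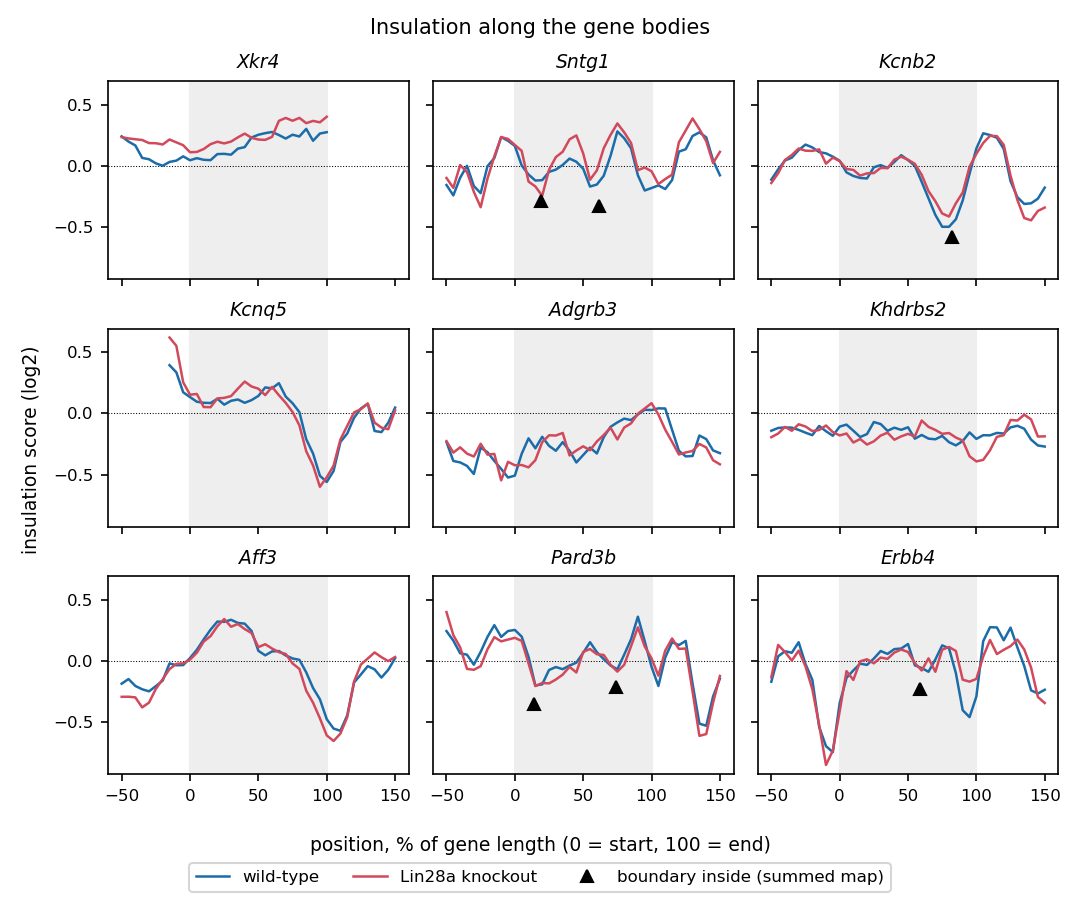
Insulation score (y axis, log2) along the 9 genes scaled to their length (x axis, % of gene length in the direction of transcription), in the wild-type (blue) and knockout (red) libraries. Grey marks the body and triangles the boundaries inside it in the map of both libraries together. The deep minimum inside *Kcnb2* and those at the ends of *Kcnq5* and *Aff3* and before the start of *Erbb4* stand in both lines.

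Many boundaries hold binding sites of CTCF, the protein at which loop formation by cohesin stops, so the sequence within 20 kb of each boundary was searched on both strands for the core consensus of CTCF, a motif of 12 letters. Such a match stood near 26.2% of the 172 boundaries, beside 13.1% of all windows of that size. Of the 18 boundaries inside or nearest to these genes, 2 had a match, or 11.1%. They are shown because they mark the only boundaries of these genes with the motif, in capitals, within 60 bases of GRCm38. The first lies at chr1:8287716-8287775 (plus strand), 12.3 kb from the boundary beyond the end of *Sntg1*, and the second at chr1:61771401-61771460 (minus strand), 8.57 kb from the first boundary inside *Pard3b*.
*Sntg1* end: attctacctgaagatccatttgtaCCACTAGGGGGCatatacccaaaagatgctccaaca
*Pard3b* inside: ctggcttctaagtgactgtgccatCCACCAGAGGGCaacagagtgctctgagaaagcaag
No match stood near the deeper boundaries of *Kcnb2*, *Kcnq5*, *Aff3*, *Adgrb3* and *Erbb4*, which says only that these letters were not found there.

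Compartment values, the leading eigenvector of the correlation between contact profiles of 250 kb bins in SD units, put 7 of the 9 genes in the B compartment, where the value is below 0. Of all bins 54.6% were in B. Among the 17 other long genes 9 were in B. The lowest value was that of *Khdrbs2*, -1.26 in wild-type cells and -1.31 in knockout cells, followed by *Adgrb3* (-1.14 and -1.09). *Kcnq5* (-0.98 and -0.83), *Erbb4* (-0.93 and -0.86), *Sntg1* (-0.72 and -0.73) and *Xkr4* (-0.69 and -0.60) formed the middle of the set. *Aff3* alone lay deep in A, at 1.25 and 1.26, and the lowest of its 3 bins had 1.17.

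*Kcnb2* and *Pard3b* sat on the border between the compartments. *Kcnb2* had values of -0.09 and -0.18, and its bins ran from -0.71 to 0.46. *Pard3b* had 0.03 and 0.09, with bins from -0.40 to 0.93, and with bins of 100 kb it fell just below 0, to -0.056 and -0.00375. Both were among the divided bodies. In both, the 500 kb beyond the end were in A (0.62 and 1.14 in the summed map), and so were those beyond the end of *Kcnq5* (0.74), whose own body was in B. *Khdrbs2*, *Adgrb3* and *Erbb4* had B on both sides. No gene differed between the libraries by more than 0.16 SD units, while the differences of all bins had an SD of 0.15.

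**Figure D4:**
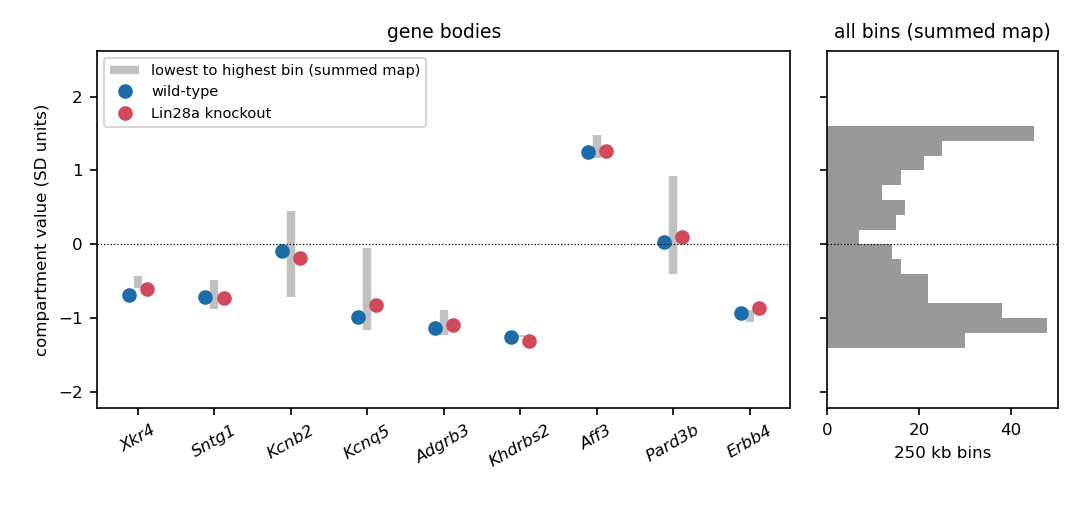
Compartment values (y axis, SD units, A above 0) of the 9 gene bodies (left) in the wild-type (blue) and knockout (red) libraries, with grey bars from the lowest to the highest 250 kb bin of the body in the summed map, and the distribution of all bins (right). *Aff3* stands alone near 1.25, *Kcnb2* and *Pard3b* near 0 with wide bars, and the others below.

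Contacts between the genes followed the compartments. Of the 36 pairs of bodies, 3.77 to 65.1 Mb apart, 22 had more contacts than expected in each library, beside 46.3% of pairs of 500 kb windows at like distances in wild-type cells and 46.4% in knockout cells. Of the 21 pairs with both genes in B, 20 stood above 1 in each library, with medians of 1.27 and 1.28. The exception with balanced values was *Kcnb2* with *Erbb4*, at 0.617 and 0.573. With weights corrected for position, *Xkr4* with *Kcnb2* also fell below 1 in wild-type cells (0.932). In knockout cells *Sntg1* with *Kcnq5* (0.959) and with *Adgrb3* (0.980) did so. Of the 14 pairs with 1 gene in A and 1 in B, 2 stood above 1 in wild-type cells and 1 in knockout cells, with medians of 0.851 and 0.812. Without balancing, 14 and 13 of the 36 pairs stood above 1, and with weights corrected for position 21 and 20. Compartments are derived from such contacts, so the grouping by compartment is a description and not an independent result. The shares for pairs of windows cover all compartments together. Whether these genes differ from other regions of the same compartment was not tested.

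Among the highest values in both lines was that of *Kcnq5* with *Khdrbs2*, 10.8 Mb apart, with 1.75 (1.48 to 2.06, 147 pairs) in wild-type cells and 1.96 (1.65 to 2.30, 148 pairs) in knockout cells. The highest in wild-type cells, that of *Xkr4* with *Khdrbs2*, was not as high in knockout cells, with 1.81 (1.44 to 2.23) and 1.25 (0.918 to 1.67). *Xkr4* lies at the edge of the stretch, and after the correction this pair stood at 1.60 and 1.0975, below *Kcnq5* with *Khdrbs2* at 1.74 and 1.94. In the wild-type library *Aff3* had its lowest values with *Adgrb3* and *Khdrbs2*, 0.562 (0.427 to 0.727) and 0.577 (0.445 to 0.737), which stood at 0.699 and 0.625 in knockout cells.

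From the 40 kb around each start, contacts into the body were compared with contacts upstream at the same distances. Of the 9 genes, *Erbb4* and *Aff3* had the strongest lean into the body and were the only ones with an interval above 1 in both lines. Such a lean was not particular to them, since 7 of the 17 other long genes had it too, and 2 of these, *Dis3l2* (1.74 and 1.57) and *Spag16* (1.55 and 1.48), stood above *Aff3* in both lines. At *Erbb4* the ratio was 2.25 (1.92 to 2.65) in wild-type cells, from 426 pairs into the body and 246 upstream, and 1.75 (1.47 to 2.08) in knockout cells. At *Aff3* it was 1.502 (1.32 to 1.71) and 1.44 (1.24 to 1.67). For the other 7 genes the ratio lay between 0.793 and 1.14 over both libraries, and apart from *Kcnb2* (0.793, 0.691 to 0.909) and *Pard3b* (0.842, 0.751 to 0.945) in wild-type cells the interval included 1. The boundary 80 kb upstream of *Erbb4* lies inside the upstream flank that was counted, and its part in the ratio was not tested.

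The promoters of these 2 genes, from 250 bases before to 50 after a start listed by RefSeq (GRCm38.p6), are shown with CG dinucleotides in capitals, since such dinucleotides are dense at the starts of widely expressed and developmental genes. The first is *Erbb4* at chr1:69108010-69108309 (minus strand) and the second *Aff3* at chr1:38627195-38627494 (minus strand). Both starts lie inside the annotated bodies.
*Erbb4*: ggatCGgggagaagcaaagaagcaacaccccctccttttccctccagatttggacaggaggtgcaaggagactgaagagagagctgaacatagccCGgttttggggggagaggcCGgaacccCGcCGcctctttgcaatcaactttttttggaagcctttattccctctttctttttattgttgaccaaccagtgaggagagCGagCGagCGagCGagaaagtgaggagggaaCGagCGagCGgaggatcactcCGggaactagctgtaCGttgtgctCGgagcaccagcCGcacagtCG
*Aff3*: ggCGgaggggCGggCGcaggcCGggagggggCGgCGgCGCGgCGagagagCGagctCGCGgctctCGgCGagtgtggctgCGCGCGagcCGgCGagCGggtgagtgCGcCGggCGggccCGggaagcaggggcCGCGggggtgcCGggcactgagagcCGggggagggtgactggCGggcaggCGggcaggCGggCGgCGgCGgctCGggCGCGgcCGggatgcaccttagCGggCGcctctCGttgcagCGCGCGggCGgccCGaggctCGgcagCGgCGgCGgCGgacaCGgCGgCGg
The promoter of *Aff3* had 54 CG dinucleotides, more than 99.7% of the 32851 promoters of the table, and that of *Erbb4* had 17, more than 68.6%. The 8 entries found for 7 of the 10 genes had between 3 and 54 with a median of 23, against a median of 7 over all promoters. The lowest was 1 of the 2 entries of *Kcnq5*, whose other entry had 20.

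To compare the libraries, the pairs inside each body were divided by the number expected at the same distances in the same library, and the knockout value by the wild-type value. A body was called where this ratio passed 1.1-fold in either direction with an interval that leaves out 1. None of the 9 genes was called. Among 90 other coding genes of at least 100 kb, 4.44% were called higher and 10% lower, and among 500 kb windows 0.585% and 1.17%. The ratios of the 9 genes ran from 0.950 to 1.05 with a median of 1.03.

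*Khdrbs2* had the highest ratio, 1.05 (1.00 to 1.103), and *Kcnq5* and *Sntg1* had 1.04 (1.00 to 1.08) and 1.04 (1.00 to 1.07). *Aff3* was the only gene with fewer contacts in knockout cells past the counting interval, at 0.950 (0.911 to 0.991). In all, intervals of 5 of the 9 genes left out 1, and so did those of 16.7% of the 90 other coding genes and 30.4% of 500 kb windows. Intervals narrow as pairs increase, and the part of this in the difference between these shares was not tested. The 9 bodies held 3786 to 13165 wild-type pairs, and the 90 genes, most of them shorter, from 167 (*Cps1*) to 9951 (*Spag16*). The 500 kb windows held from 1549 to 7834. The intervals of *Xkr4* (1.04), *Kcnb2* (1.01), *Adgrb3* (1.01) and *Erbb4* (1.01) included 1. Changes past 1.08, 1.06, 1.05 and 1.05-fold upward thus lie outside the counting intervals of these genes. The ratios of *Khdrbs2*, *Sntg1* and *Pard3b* fell just below 1 under at least 1 other scaling. Replicate error is unknown and would widen all of these intervals.

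**Figure D5:**
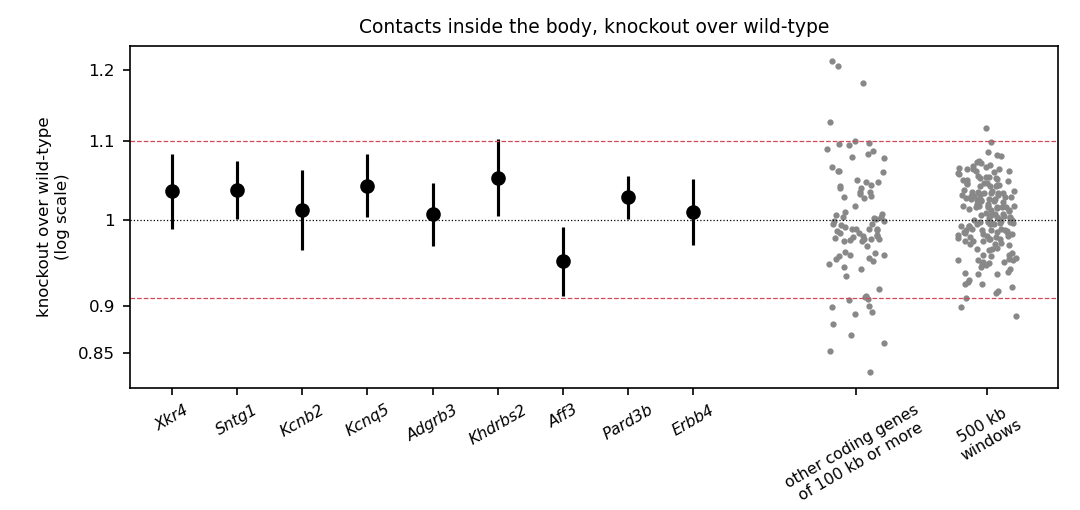
Contacts inside the body in knockout cells over wild-type cells (y axis, log scale) for the 9 genes with 95% counting intervals, and for other coding genes of at least 100 kb and 500 kb windows (grey points, x position within each column has no meaning). Dashed lines mark 1.1-fold in either direction, and all 9 genes lie between them.

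Insulation scores of the libraries were compared at each 20 kb position. The interval of the difference left out 0 at 34 of the 321 positions in the 9 bodies (10.6%), beside 10.7% of all 4287 positions of the stretch. The most different position of the set lay in *Erbb4*, 1020 kb from its start at the boundary nearest its end, where the score was -0.52 in wild-type cells and -0.11 in knockout cells, a difference of 0.41 (0.19 to 0.62). Only 0.0700% of all positions differed by as much. This position was picked as the largest difference, it lies in the body of lowest coverage, and neither the part of coverage nor a second library was tested. *Sntg1* was higher in knockout cells at 8 of 48 positions, *Erbb4* at 7 of 54, *Xkr4* at 5 of 25, *Kcnq5* at 2 of 29 and *Kcnb2* at 1 of 23, while *Adgrb3*, *Khdrbs2*, *Aff3* and *Pard3b* were lower at 2 or 3 positions each. Squares of neighbouring positions overlap, so these positions are not separate observations.

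Contacts with other chromosomes were counted as the share of trans pairs among trans pairs and cis pairs of at least 5 kb with an end in the body. The shares ran from 27.6% in *Adgrb3* to 36.0% in *Sntg1* in wild-type cells and from 27.9% to 35.0% in the same genes in knockout cells. The median was 31.5% and 30.6%, beside 30.1% and 29.6% for 500 kb windows. *Sntg1* (36.0%, 35.6% to 36.4%), *Xkr4* (34.3%, 33.8% to 34.8%) and *Aff3* (33.1%, 32.7% to 33.6%) had the highest shares in wild-type cells, and *Adgrb3*, *Khdrbs2* (29.3%) and *Erbb4* (29.7%) the lowest. Between them stood *Kcnq5* (31.6% and 31.8% in the wild-type and knockout libraries), *Kcnb2* (31.5% and 30.6%) and *Pard3b* (30.8% and 30.5%). The order was the same in knockout cells, where *Xkr4* (34.9%) and *Sntg1* (35.0%) did not differ beyond their intervals. High shares were not particular to these genes. Of the other long genes between *Xkr4* and *Kcnb2*, *Cpa6*, *Prex2* and *A830018L16Rik* had 34.4%, 34.2% and 33.8% in wild-type cells, and *St18* had 32.0%. *Xkr4* lacks cis partners on 1 side, since the assembled sequence begins near it, and the part of this in its share was not tested.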

How the data were processed

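Hi-C pairs were taken from 1 wild-type and 1 *Lin28a* knockout library. Per the submitters' processing notes, CASAVA 1.8, Bowtie2 and HiC-Pro were used with mm10, in roles not given in the sources used here. The deposited lists hold 1 line per pair with both positions (bp) and a mapping quality score per end, which ran from 11 to 42 in what the authors deposited. Counts of pairs were not normalized. The lists analysed here were partial, so chromosome 1 from 3 to 90.75 Mb was used. The extraction protocol names 2 replicates per group, which the lists do not tell apart. Alternatives changed bin size, smallest distance, mapping quality, balancing, gene bodies, sequencing run, insulation square and prominence, scaling and weights.

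Gene bodies came from RefSeq (GRCm38), with GENCODE M21 as an alternative. Pairs were binned at 10 kb, 20 kb (insulation) and 250 kb (compartments, pairs of 20 kb or more, wild-type pairs thinned to 1973740). Bins with less than 20% of the median total were dropped (203 and 199 at 10 kb), and a body needed 80% usable bins. Maps were balanced by iterative correction, and ratios between libraries used an expectation by distance only. Intervals are exact Poisson, exact binomial (Clopper-Pearson) or exact binomial splits at 95%, and normal intervals on log2 counts for insulation scores. Intervals cover counting error only, since each group had 1 library. Reads copied by PCR are not independent molecules, and whether such copies remain among the pairs was not checked. Contact values, ratios, boundaries and compartments were also computed on simulated maps drawn from the balanced weights and distance means of these data. The ratio check there used a limit lower than 1.1-fold and no interval, and no result above rests on these maps. Python 3.11.15 with numpy 2.4.6, scipy 1.17.1 and pandas 2.3.3 was used. The 10 genes could be named for any measure (*Rims1* has no contact values), other long genes where a count is small, and boundaries where nearest to a member. The genes and lists were chosen with earlier results of these data known.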

Additional observations from a re-analysis of the deposited data

How the results depend on the processing

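No paired analysis was possible because each group had 1 library. With 1 library per group no replicate could be left out, and start-to-end contacts rested on at most 36 pairs. Weights corrected for position, distance classes, start-to-end contacts, the motif search and the balanced ratio were chosen after seeing the data. Of the values that summarise a comparison, 48 held under an alternative and 32 moved. Of the other values, nearly all of them of single genes, 393 held, 146 moved and 27 turned their direction. Where no cause is given, the cause was not tested.

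Without balancing, medians for the wild-type and knockout libraries were 0.961 and 0.987 inside the body, 0.951 and 0.945 across the start and 0.822 and 0.865 across the end. Single genes that turned were *Xkr4* (0.961 and 0.995), *Sntg1* (0.744 and 0.771) and *Erbb4* (0.384 and 0.388) inside, *Kcnq5* (0.951 and 0.945) across the start, and *Xkr4* (0.688 and 0.731), *Sntg1* (0.822 and 0.865) and *Erbb4* (0.482 and 0.457) across the end. Pairs of genes above 1 were 14 and 13 in place of 22. With weights corrected for position the medians were 0.991 and 1.00 inside, 0.973 and 0.969 across the start and 1.00 across the end in the wild-type library. *Xkr4* then turned inside (0.848 and 0.883), across the start (0.915 and 0.884) and across the end (0.815 and 0.898), and *Sntg1* inside in the wild-type library (0.974). Without *Sntg1* and *Erbb4* the medians inside were 1.01 and 0.991, and with 20 kb bins the median across the end was 1.02 in the wild-type library.

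Against stretches without a gene of any kind, 5 genes stood above the median in the knockout library. The median insulation score inside the body was 0.12 in both libraries and the summed map with a 400 kb square, and 0.18, 0.18 and 0.17 with 100 kb bins and a 500 kb square, against -0.01, 0.00 and 0.00. Divided bodies numbered 3 in each library with a prominence of 0.4, and 3 in the wild-type library with a 400 kb square, against 5 and 6. The compartment value of *Pard3b* was -0.056 and -0.00375 with 100 kb bins. The ratio of *Pard3b* was 0.996 scaled by all cis pairs and 0.984 with a balanced expectation, that of *Sntg1* 0.997 scaled by the flanks and that of *Khdrbs2* 0.998 with a balanced expectation. Median trans shares were 32.5% and 31.5% with cis pairs of at least 20 kb, 28.7% and 27.1% without partners on chromosomes 6, 8 and Y, and 27.7% in both libraries counted as read ends.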
